A study of Mus musculus with 82 samples.

Results

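The 50 bp stretches of the mouse genome that collected most reads of single-cell nascent RNA sequencing (scGRO–seq), outside annotated small RNA genes, are described here. A strand-specific bin was a member if 200 or more RNA 3′ ends fell in it, summed over the 53 libraries of 10 main scGRO–seq batches, after leaving out the mitochondrial genome, an rRNA-bearing interval of chr17 and bins within 20 bp of a RefSeq snoRNA, tRNA, snRNA, rRNA or miRNA gene. Of 7775043 bins with a read, 1826 reached 200 reads, of which 455 lay at small RNA genes and the other 1371 were members. Members made up 0.0176% of these bins and held 1211937 of 13882200 reads, or 8.73%, and 9.37% of the 12930487 that lay outside the bins at small RNA genes. Members were chosen by the reads of the 10 main batches, so every value from these batches is a description. Without Exp260b 820 bins met the rule, and 448 did when only reads of 25 bases or more were counted. The 11 other scGRO–seq batches, inAGTuC and AGTuC were not used by the rule.

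All libraries came from untreated V6.5 cells, a mouse embryonic stem cell line, grown in serum with leukaemia inhibitory factor, and the labels give no difference in treatment between the groups. AGTuC came from an experiment of its own, so that assay and experiment cannot be told apart. In scGRO–seq, nuclei ran on with propargyl-labelled nucleotides, and the RNA of single nuclei in 96-well plates was joined by click chemistry to an azide DNA with a cell barcode. In inAGTuC, the same reactions were done with many intact nuclei per well (4 libraries of 3 experiments), and in AGTuC in bulk with 0.5% sarkosyl (2 libraries of 1 experiment). Each batch or library was 1 sample, and the labels do not say that samples came from separate cultures. P-values therefore measure the spread between these samples, which may be technical. AGTuC, inAGTuC and the other scGRO–seq batches were in the same fit and shared the estimate of the spread. P-values for AGTuC against inAGTuC thus also rest on the spread between the other scGRO–seq batches.

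Counted reads ran from 253220 to 4647090 per main batch, from 11717 to 976053 per other batch, from 569047 to 1438399 per inAGTuC library, and were 2215640 and 4719391 in AGTuC. The median level of 10 embryonic stem cell markers was 2.44 RPKM in the main batches, 3.10 in inAGTuC and 10.4 in AGTuC. The medians of fibroblast, endoderm and mesoderm markers lay between 0.0596 and 0.524 RPKM, and that of the neural markers Sox1 and Pax6 was 0.635, 0.581 and 6.92, the last through Sox1 at 13.8. Reads whose UMI, barcode, strand and position recurred elsewhere among the libraries were set aside, which removed 203513 of 1415450 deposited reads in members, where 44297 were expected by chance, and 5844430 of 20196981 in the main batches as a whole.

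In a nuclear run-on the 3′ end of a nascent RNA marks the place of an active polymerase, and along most genes such ends are spread over many positions. Abundant stable RNAs, such as ribosomal RNA and the RNAs of RNase MRP and RNase P, are made by polymerases I and III, and mammalian genomes carry many partial copies of their genes. A very short read can be placed on the genome by few bases. According to the study's methods, a version of the azide DNA carries the bases ACAGG after the azide-bearing T at its 5′ end, the end that is joined to the RNA.

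Members fell into 2 kinds by read length, a division made after the values were seen. In 888 members more than 90% of reads were 24 bases or shorter, in 437 fewer than 10% were, and 46 lay between. Members with at least 50% of such reads are called short-read members (915 members, 687562 reads) and the rest long-read members (456 members, 524375 reads).

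The sequences around the most frequent 3′ end show how the kinds differ. Each is from GRCm38 (mm10), 5′ to 3′ on the strand of the RNA, with 25 bases up to and including that 3′ end and 5 bases beyond it. The first set are short-read members with many reads whose 3′ end fell right after ACAGG, in capitals.
chr1:185715151-185715200, minus strand: acccggaagagggtcgtgttACAGGcaggg
chr14:99415601-99415650, minus strand: tcttcagggagagacaggggACAGGtagtc
chr9:78384051-78384100, plus strand: atgtacatgcggagatgtgtACAGGtctat
chr5:120454001-120454050, plus strand: tgtagcaagcagacaggggtACAGGcaata
chr1:137374251-137374300, minus strand: gaaaagaagagtcgtgtagtACAGGcgcac

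The second set are the most-read bins of other groups of short-read members that share a word of 8 bases, in capitals, within the last 20 bases.
chr15:68500001-68500050, minus strand: gagagacaggggagaGACAGGGGagggaga
chr8:25227351-25227400, plus strand: gggttgagatGTGTATAAgagacaggtgta
chr2:124002551-124002600, plus strand: tcaaaaggtcAGAGTTCTacagtccacacc
chr2:124002501-124002550, minus strand: cggtgtggacTGTAGAACtctgaccttttg

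The third set are long-read members, with the last 5 bases before the 3′ end in capitals in the first 4, and a word shared within a group of similar sequences in the last 2.
chr6:3201501-3201550, plus strand: gaagacgatcagataccgtcGTAGTtccga
chr9:3258801-3258850, minus strand: taaggagtgtgtaacaactcACCTGtcaaa
chr17:34952201-34952250, minus strand: cgccactccttgtaactgacCCAGGccggg
chr1:161037401-161037450, plus strand: agattgattgttaagctgaaACAGTattta
chr6:49236451-49236500, minus strand: aggtgtcagAAAAGTTAccacagggataac
chr9:70554701-70554750, plus strand: cCAGCCTGGgctacacatttagaggggctg

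The 3′ ends of 534 of 915 short-read members (58.4%) fell right after ACAGG, and 491 of these had T before it. The same was true of 16 of 456 long-read members (3.51%), of 1564 of 4653 bins with at least 50 but under 200 reads (33.6%) and of 7 of 455 small RNA bins (1.54%). ACAGG stands at 0.136% of genome positions. The word was thus common at the ends of short-read members and of less-read bins. It was less common at small RNA genes, where the read length of a bin was 52 bases at the median.

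The word was not confined to members. Of the 5219926 reads of 24 bases or fewer in the main batches, 16.4% ended on ACAGG, a share 121.3 times that of genome positions, and the word ranked first among the 1024 words of 5 bases. Outside members 10.5% of 4541555 such reads ended on it, 77.69 times the genome share. Of the longer reads 1.69% did, 12.48 times the genome share.

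The share of such ends differed between batches. Among the main batches, the share of short reads ending on ACAGG was 0.245% in Exp156, 0.134% in Exp160, 0.126% in Exp208 and 0.233% in Exp211, where 0.136% of genome positions hold the word. It was 5.57% in Exp236, 10.5% in Exp246, 26.04% in Exp260, 34.3% in Exp260b, 26.2% in Exp263 and 3.73% in Exp264a.

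The same division was seen in libraries that the rule did not use. Among the other batches, Exp93b, Exp149, Exp153, Exp168, Exp179 and Exp183 had between 0 and 0.206% of short reads ending on the word, and Exp230, Exp234, Exp256, Exp261 and Exp263b between 7.13% and 37.5%. The 4 inAGTuC libraries stood at 0.0857% and 0.119% (Exp208), 0.806% (Exp234) and 19.1% (Exp261), and the AGTuC libraries at 0.012% and 0.0204%. Libraries with the word at over 1% of short reads had cell barcodes of 10 bases, whereas Exp149, Exp153, Exp156, Exp160, Exp168, Exp179, Exp183 and AGTuC had 12 and Exp208 and Exp211 had both lengths in scGRO–seq. Exp93b and the inAGTuC libraries of Exp208 and Exp234 also had barcodes of 10 bases, with the word at under 1%. The part of the azide DNA and of the barcode design in these ends was not tested.

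**Figure D1:**
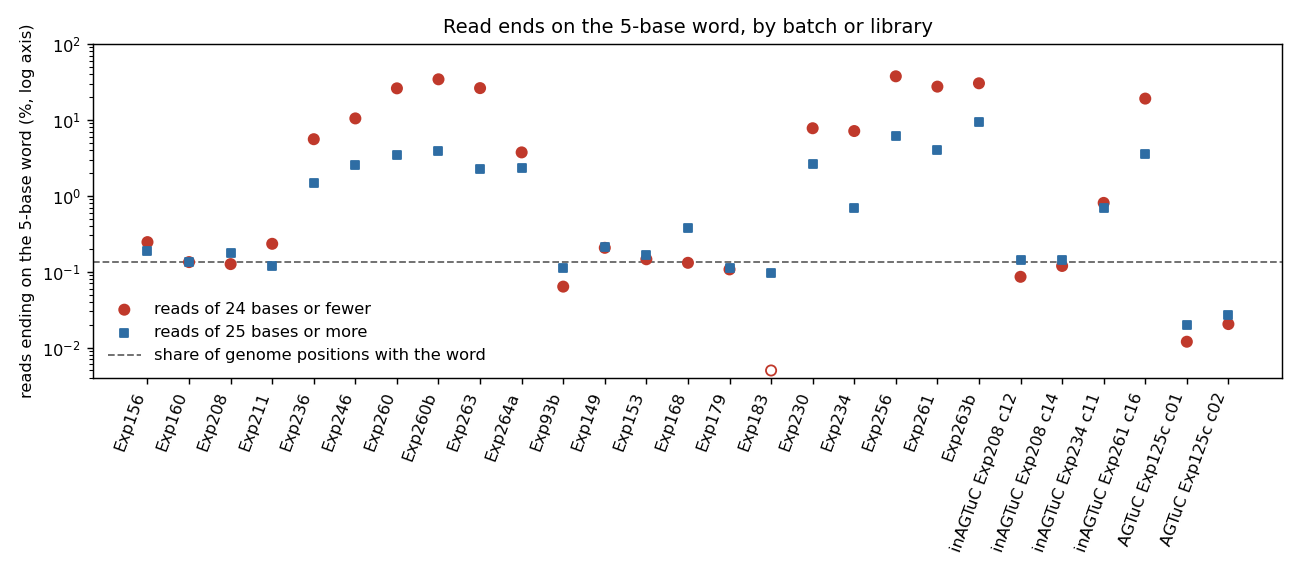
Share of reads (%, log axis) whose RNA 3′ end falls right after the 5-base word of the azide DNA, for each scGRO–seq batch, inAGTuC library and AGTuC library. Circles are reads of 24 bases or fewer (the open circle is a share of 0, drawn at the bottom of the axis), squares are longer reads and the dashed line is the share of genome positions, 0.136%; the circles of 6 main batches, 5 other batches and 1 inAGTuC library lie between 3.73% and 37.5%, and those of the rest below 1%.

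Of the 381 other short-read members, 271 fell into 15 groups that share a word of 8 bases near the 3′ end, and 110 into none. GACAGGGG was shared by 63 members, TACAGGGG by 40, GTGTATAA by 26, AGAGTTCT and TGTAGAAC by 25 each and GGTACAGG by 20. The remaining groups had 13 members or fewer. The group of AGAGTTCT had most reads in Exp208 in 24 of 25 members, and that of TGTAGAAC had most in Exp211 in 25 of 25. The printed bins of these groups are neighbours on opposite strands, and their sequences are reverse complements of each other over all but the outermost base. As given above, 0.126% and 0.233% of the short reads of these batches ended on ACAGG.

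Counted over the last 25 bases before the most frequent 3′ end, on the strand of the RNA, ACAGG was present in 77.8% of short-read members, 11.4% of long-read members, 64.02% of bins with at least 50 but under 200 reads and 2.79% of 264750 evenly spaced genome windows of the same length. ACAGGGG was present in 22.1% of short-read members against 0.162% of windows, GAGACAG in 12.02% against 0.394% and TGTATAA in 4.59% against 0.182%. The motif ACAGGGG contains ACAGG. On the opposite strand ACAGG was present in 1.20% of short-read members. Runs of TTTT within 50 bases, a termination signal of polymerase III, were present in 15.7% of members against 27.3% of windows, and AATAAA, the polyadenylation signal, in 2.12% against 3.93%. The longest motifs named in this paragraph are all pieces of the reverse complement of the read 1 adaptor, which the study's methods trimmed. So are the words shared by the groups of 63 and 26 members. The 5-base word lies in that sequence too. Whether matches come from this adaptor or from the azide DNA was not tested. Each counted piece of the read 2 adaptor was present in 0.656% of short-read members, against 0.014% and 0.0023% of windows. These matches are descriptions of letters and not of binding or processing.

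Short-read members were narrow. At the median 90.7% of the reads of a bin shared 1 position, 5 positions were used and the read length was 18 bases, whereas in long-read members 28.9% of reads shared the most frequent position, 33 positions were used and the length was 42 bases. Both kinds drew on many cells, with a median of 238 and 375 cell barcodes. In short-read members 56.6% of reads came from a barcode with more than 1 read in the bin, and in long-read members 37.0%. Median mapping quality was 24 and 22, and 96.8% and 67.3% of members had a median of 20 or more.

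**Figure D2:**
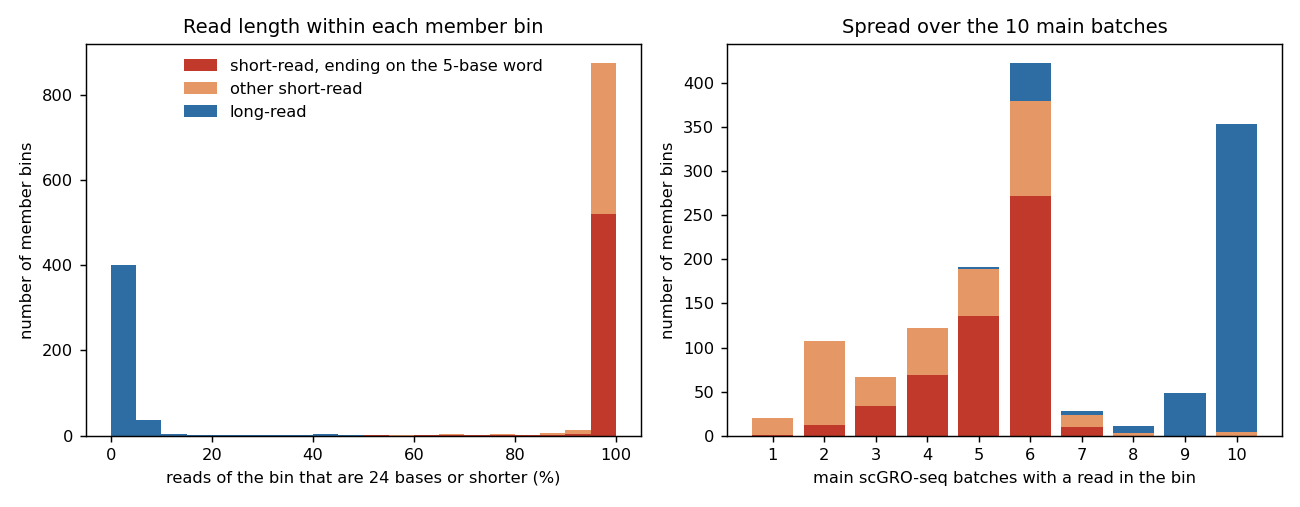
Left, number of member bins by the share of their reads that are 24 bases or shorter (%), and right, by the number of main scGRO–seq batches with a read in the bin. Colours mark short-read members that end on the 5-base word, other short-read members and long-read members; most bins lie at either end of the length axis, 397 of the 456 long-read members have reads in 9 or 10 batches, and 4 of the 915 short-read members do.

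Members differed as much in how they were spread over the 10 main batches. Reads in 9 or 10 batches were seen for 397 of 456 long-read members and for 4 of 915 short-read members, and reads in 7 or fewer for 51 and 908. The batch with most reads held a median of 92.0% of the reads of a short-read member and 42.3% of those of a long-read member, and 87.1% and 39.3% after each batch was scaled to its total. Exp260b led in 534 short-read members, Exp263 in 138, Exp211 in 79, Exp236 in 62, Exp208 in 53 and Exp260 in 42. In long-read members Exp264a led most often, ahead of Exp236 with 140. Of 491 members with over 90% of reads in 1 batch, 490 were short-read members.

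The extremes show the contrast. In 20 members, all short-read, every read came from 1 batch. The one with most reads, chr1:187230901-187230950 (minus strand, antisense within Gpatch2), had 458 reads in Exp211, from 109 cell barcodes. The 5 with the smallest share were long-read members. Among them, chr4:43493051-43493100 (plus strand, at Rmrp) had 18.5% of 362 reads in Exp236, and chr10:11492101-11492150 (minus strand, outside genes) had 20.4% of 1991 reads in Exp260b and levels, in reads per 1000000 counted reads (RPM), of 62.9 to 357 over the 10 batches, with a median of 153.

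The same measure was taken in the libraries that the rule did not use, which are not all of separate experiments. The inAGTuC libraries of Exp208 share the experiment number of a main batch, and those of Exp234 and Exp261 share theirs with other scGRO–seq batches. Reads in the other scGRO–seq batches were seen for all 456 long-read members and for 823 of 915 short-read members. Of short-read members 303 had no read in inAGTuC and 860 none in AGTuC, and of long-read members 6 had none in inAGTuC and 355 had some in AGTuC. All 4 inAGTuC libraries had reads in 301 long-read members and in 1 short-read member, and both AGTuC libraries in 275 and 16. The median level was 5.45 RPM in the other batches, 0.497 in inAGTuC and 0 in AGTuC for short-read members, and 18.2, 9.93 and 0.865 for long-read members.

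**Figure D3:**
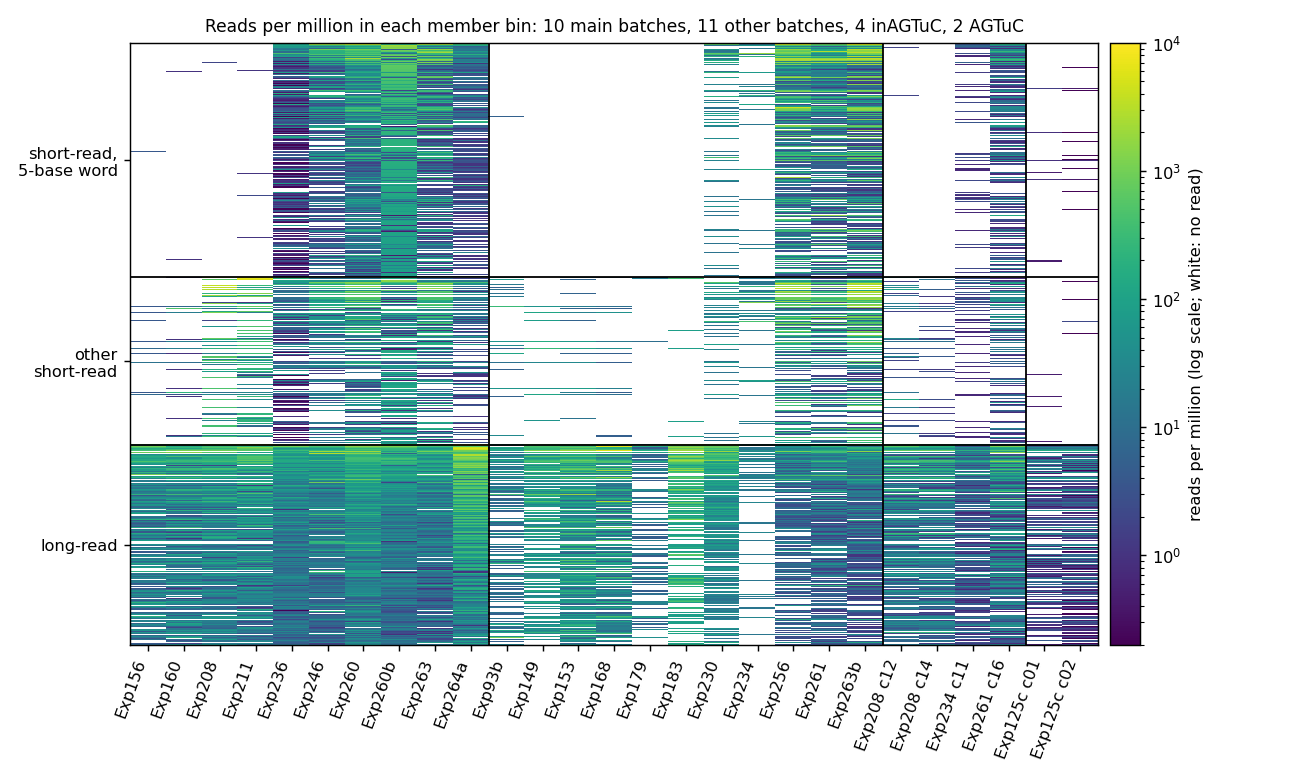
Level in RPM (log colour scale, white for no read) in each member bin (rows) in 10 main scGRO–seq batches, 11 other batches, 4 inAGTuC and 2 AGTuC libraries (columns). Rows are grouped into short-read members on the 5-base word, other short-read members and long-read members, and sorted by level within each group; the first group fills the columns of 6 main batches and of Exp256, Exp261 and Exp263b, is sparse in Exp230 and Exp234 and nearly empty in the first 4 main batches and in AGTuC, while long-read members have reads in every column, fewest in Exp234 and Exp179.

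Shares are of the reads outside the bins at small RNA genes, which are the counted reads by which RPM divides. Members held 2.71% (Exp156) to 20.2% (Exp264a) of these reads of a main batch, with a median of 10.9%. In the other batches the share ran from 0.578% (Exp179) to 26.4% (Exp263b), with a median of 6.74%. In inAGTuC it was 2.49%, 1.92%, 0.538% and 4.24%, and in AGTuC 0.255% and 0.293%. Both AGTuC libraries thus lay below every other sample. With each cell barcode counted once per library and bin, 989 bins met the rule, and their median share in the main batches was 3.28%.

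The 2 kinds made up these shares differently. Short-read members held 14.1% of the reads of Exp260b and 24.96% of those of Exp263b, but 0.0194% of Exp156 and 0.00165% and 0.00172% of AGTuC. Long-read members held 19.3% of Exp264a, where the next main batch was Exp260 at 5.56%, and 0.254% and 0.292% of AGTuC. The share of reads of 24 bases or fewer in the whole library was 0.752% and 0.826% in AGTuC, 9.70% to 26.6% in inAGTuC and 1.41% to 68.4% in the main batches. The part of read length in the difference between assays was not tested, other than by counting reads of 25 bases or more alone, as given with the tests.

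**Figure D4:**
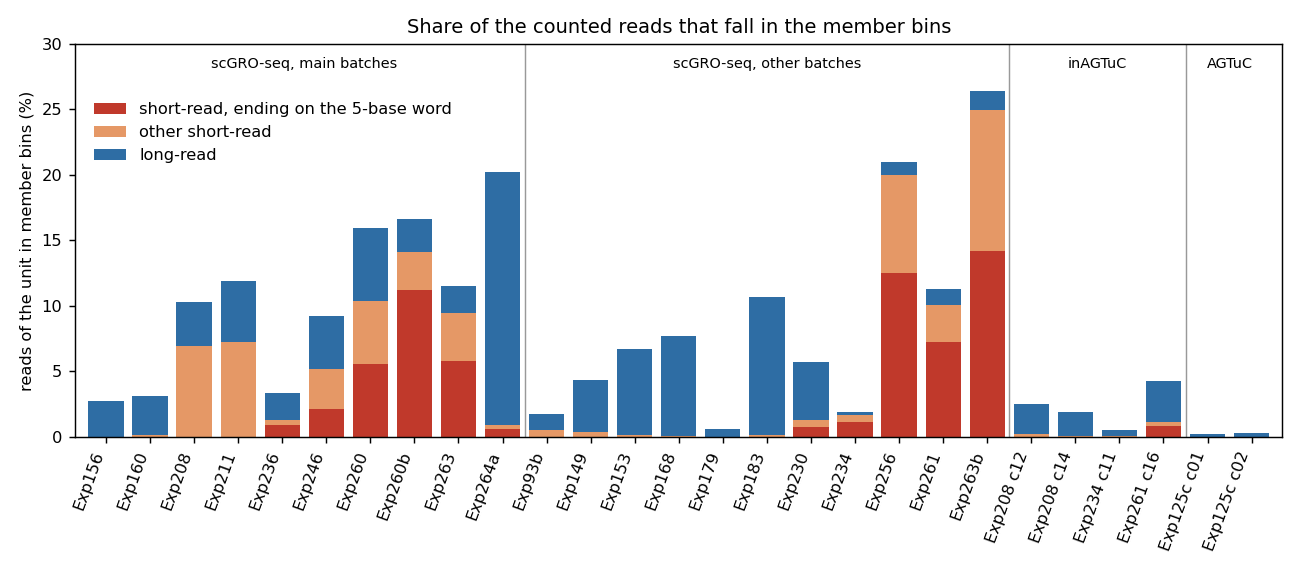
Share of counted reads (%) that fall in the member bins in each scGRO–seq batch, inAGTuC library and AGTuC library, stacked by kind of member. Totals run from 0.255% in 1 AGTuC library to 26.4% in Exp263b, and in Exp264a long-read members alone make up 19.3%.

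Relative to RefSeq genes, 694 members (50.6%) lay outside genes and their 10 kb downstream flanks, 308 in introns, 252 antisense within a gene, 53 downstream of a gene end, 41 in exons and 23 antisense within 1000 bases of a start. Among bins with at least 50 but under 200 reads 46.6% lay outside and 4.90% in exons. With all RefSeq transcripts, predicted ones included, 559 members lay outside and 59 in exons. Exons held 19 of 915 short-read members and 22 of 456 long-read members. Members were even between strands, with 700 on the plus and 671 on the minus strand, and 92 had a member on the other strand of the same bin. They formed 1106 loci when those within 1 kb were joined, of which 979 had 1 member and 51 had 3 or more, with 240 members in all.

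Long-read members were in large part copies of a limited number of sequences. Of 456, 341 shared sequence with another (80% identity over 25 or more of 60 bases) in 54 groups, and 19 groups of 5 or more held 252 of them. For 313 of the 341 the group spanned more than 1 locus, and 14 groups lay within 1 locus, where windows of neighbouring bins overlap. By BLAST, 125 matched an RNA gene of RefSeq or the chr17 interval that the rule leaves out, which carries the 18S rRNA pseudogene Rn18s-rs5. These matches were to rRNA for 74, to miRNA for 16, to RNase MRP RNA for 11, to guide RNA and tRNA for 6 each, to Y RNA for 4, to RNase P RNA and snoRNA for 3 each and to snRNA and telomerase RNA for 1 each. The rRNA class, as annotated, includes 16 matches to Rn4.5s, all on masked sequence, and whether these are ribosomal was not tested. Of the miRNA matches 15 were to Mir6240, in 1 group of 18 members, and whether these are copies of a miRNA was not tested. Neither a match nor shared sequence was found for 80. Only a short piece of the large 28S rRNA was in the annotation used here, and matches to the rest of it were not tested.

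The most-read member of all, chr6:3201501-3201550 (plus strand, outside genes), had 41892 reads from 3692 cell barcodes, 65.7% of them in Exp264a, and matched the chr17 rRNA interval. Its level was 314 RPM in the lowest main batch, 1013 at the median and 27564 in the highest. It was read in all 11 other batches (39.2 to 2134 RPM, median 337), at 620, 502, 39.6 and 217 RPM in inAGTuC and at 39.3 and 54.9 RPM in AGTuC. The lower AGTuC value lay just below the lowest of inAGTuC and the higher within their range, and the difference did not pass the test (log2 −2.29, SE 1.40, limma voom adjusted p = 0.108). Its neighbours made a locus of 13 long-read members and 67364 reads at chr6:3200801-3201700, all with a match to that interval. Without Exp264a the bin kept 14358 reads.

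Other loci of many members also had reads in a median of 10 main batches. At chr11:109011601-109012100, outside genes, 15 members held 25739 reads, and 3770 more were in AGTuC. At chr9:3258801-3258900, 3 members held 23945, and at chr3:5860351-5860800, 11 held 17025. The leading bin of the former, chr9:3258801-3258850, fell from 14874 to 6206 reads without Exp264a. Within protein-coding genes, 7 members of 1 locus at Jarid2, a Polycomb component, 6 of them antisense, held 14069 reads, 6 at Lars2, a mitochondrial leucyl-tRNA synthetase, held 12285, 11 at Cdk8, a Mediator kinase, held 9741 and 8 at Cmss1 held 9093. At that Jarid2 locus all 7 were in a group with members of another locus, at Lars2 5, at Cdk8 6 and at Cmss1 4, so that the reads of those bins cannot be assigned to the named genes with certainty. The leading Jarid2 bin, chr13:44869601-44869650, fell from 10278 to 2686 reads without Exp264a and to 1714 at a mapping quality of 20 or more.

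Long-read members also included repeats. A group of 28 members, 27 of them on masked sequence, held 46429 reads in 5 to 6 main batches each. Of these 25 had the word AGACAGGG, which contains ACAGG, and 0 had a read in AGTuC. In word and in spread over batches this group was like the short-read members. A group of 16 matched Rn4.5s RNA, all on masked sequence, and was led by chr9:70554701-70554750 with 4026 reads. A group of 16 had runs of C. A group of 9 matched the 5S rRNA gene Gm22109, which polymerase III transcribes. Its bin chr4:149817801-149817850 (plus strand) had 47.5, 14.2, 0.695 and 658 RPM in inAGTuC and 0 and 0.212 in AGTuC, and passed limma voom (log2 −6.71, adjusted p = 5.95e-06) but not limma-trend (adjusted p = 0.233). All 4 inAGTuC libraries lay above both AGTuC libraries, but the inAGTuC library of Exp234 and AGTuC c02 had 1 read each.

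Structured RNAs of classes that the rule does not name were looked for in a list of 9 genes chosen with earlier results known. Of these 5 had members, 19 in all, and all were long-read members. Rmrp, the RNA of RNase MRP, which processes ribosomal RNA, had 11. Rpph1, the RNA of RNase P, had 3, the Y RNA genes Rny1 and Rny3 had 2 each and Terc, the telomerase RNA, had 1. Rn7s1, Rn7s2, Rn7sk and Vaultrc5 had none.

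Rmrp lies on the minus strand at chr4:43492785-43493059, and 6 of its members were sense and 5 antisense. They held 17046 reads in the main batches, 11673 in inAGTuC and 158 in AGTuC. The sense bin chr4:43492801-43492850 stood at 669, 453, 119 and 928 RPM in inAGTuC and at 5.87 and 5.72 in AGTuC (log2 −6.17, limma voom adjusted p = 0.00188). The sense bin chr4:43492951-43493000 stood at 192, 122, 189 and 188 RPM and at 0.903 and 2.12. Each AGTuC library thus lay below every inAGTuC library. The most-read sense bin, chr4:43492751-43492800 with 6040 reads, passed limma voom (adjusted p = 0.00222) but not limma-trend (adjusted p = 0.0860).

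The antisense bins of Rmrp were lower in AGTuC as well. The bin chr4:43492951-43493000 on the plus strand stood at 281, 219, 47.3 and 597 RPM in inAGTuC, with no read in either AGTuC library (limma-trend adjusted p = 0.0115). The bin chr4:43493001-43493050 on that strand stood at 286, 193, 113 and 369 RPM in inAGTuC and at 0.451 and 0.636 in AGTuC (log2 −8.29, limma voom adjusted p = 7.80e-05, limma-trend adjusted p = 0.00961). In the main batches these bins had 714 and 725 reads. The antisense bins chr4:43493051-43493100 and chr4:43492801-43492850 did not pass limma-trend (adjusted p = 0.192 and 0.06655). The lowest value of any antisense bin in an inAGTuC library was 8.34 RPM, at chr4:43493051-43493100. The assays were thus separated at Rmrp on both strands.

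**Figure D5:**
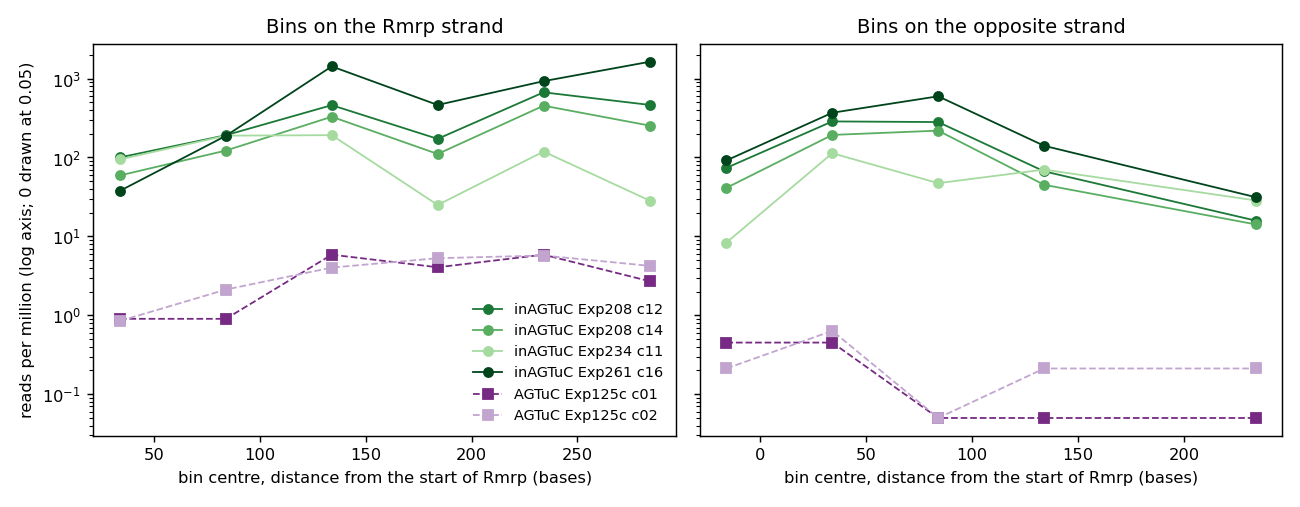
Level in RPM (log axis, 0 drawn at 0.05) in the 11 member bins at Rmrp, by the distance of the bin centre from the start of the gene (bases), for bins on the strand of the gene (left) and on the opposite strand (right). Points are single libraries, lines join the bins of 1 library and show no values between them; all inAGTuC points (8.34 to 1632 RPM) lie above all AGTuC points (0 to 5.87 RPM).

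The other listed RNAs separated less. The Rpph1 bin chr14:50807451-50807500 stood at 66.8, 75.99, 18.1 and 21.7 RPM in inAGTuC and at 3.16 and 2.76 in AGTuC (limma voom adjusted p = 0.0330, limma-trend adjusted p = 0.343). The Rny1 bin chr6:47788051-47788100 stood at 43.9, 30.9, 0.695 and 27.3 RPM in inAGTuC and at 1.35 and 1.91 in AGTuC, where the groups overlapped (limma voom adjusted p = 0.109). The Terc bin chr3:96414401-96414450 overlapped as well, at 45.7, 61.8, 0.695 and 13.7 against 1.81 and 1.48 RPM.

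The listed long nuclear RNAs and snoRNA hosts gave few members, and the rule leaves out bins at the snoRNA genes within hosts. Outside the list, the host genes 1110038B12Rik, described below, and Snhg17 also had members, and further hosts were not counted. Of 8 long nuclear RNA genes, only Malat1 had any, 3 in its exon with 863 reads. Of 8 snoRNA hosts, Gas5 had 2 and Snhg3 had 1. None of 94 ribosomal protein genes and none of 70 replication-dependent histone genes had a member. The Gas5 bin chr1:161037401-161037450 (plus strand, intronic), with 10440 reads, overlaps a small RNA that GENCODE lists as a snoRNA, and 51 members overlapped a small RNA of GENCODE. It stood at 583, 201, 3.48 and 1074 RPM in inAGTuC and at 4.06 and 5.93 in AGTuC (limma voom adjusted p = 0.00575, limma-trend adjusted p = 0.252), with the inAGTuC library of Exp234 below both AGTuC libraries. Without Exp236 it kept 5800 reads.

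The intronic bin chr17:34952201-34952250 (minus strand) of 1110038B12Rik, a non-coding host gene, had 11741 reads of a median length of 55 bases. Its level over the main batches was 330 to 2593 RPM with a median of 705. It stood at 949, 246, 6.95 and 1392 RPM in inAGTuC and at 5.87 and 8.05 in AGTuC. The groups again overlapped through the inAGTuC library of Exp234. Without Exp236 it kept 7615 reads.

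The most-read short-read members had another profile. The bin chr15:68500001-68500050 (minus strand, outside genes), with 28734 reads, had reads in 6 main batches (0 to 17597 RPM, median 533) and 5 other batches, and stood at 0, 0, 11.1 and 210 RPM in inAGTuC and at 0 in both AGTuC libraries. The bin chr14:99415601-99415650 (minus strand, outside genes), with 11205 reads, of which 97.6% at 1 position, reached 7574 RPM in Exp260 and 8874 RPM in 1 of the other batches, and stood at 0, 0, 0.695 and 396 RPM in inAGTuC. The bin chr1:185715151-185715200 (minus strand, outside genes), with 11433 reads, stood at 0, 0, 4.17 and 8.04 RPM in inAGTuC. The bin chr2:124002501-124002550 (minus strand, outside genes), with 14811 reads from 485 cell barcodes, was read in 3 main batches, 87.5% in Exp211, and stood at 66.8, 23.2, 0 and 0 RPM in inAGTuC. The inAGTuC libraries with reads were those of Exp234 and Exp261 in the first 3 bins and the pair of Exp208 in the last. The library of Exp261 was the highest in those 3. Without the batch that led each, these bins kept 16421 reads (without Exp246), 6610 (without Exp260), 5919 (without Exp236, and 6973 without Exp260b) and 1859 (without Exp211). With reads of 25 bases or more the bin on chr15 kept 12870, that on chr14 1, that on chr1 11 and that on chr2 24.

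To ask which members differ between assays, reads per bin were tested by limma voom over all 10327 bins with 50 or more reads in 9 other scGRO–seq batches, inAGTuC and AGTuC, with p-values adjusted over all bins. Of the members 707 could be tested, 366 short-read and 341 long-read, and 664 had too few reads. In AGTuC against inAGTuC, 90.1% of all bins were called, 50.8% higher and 39.3% lower. Voom adds a fixed 0.5 to each count, and with libraries of unequal size it also called bins without reads: of 506 members called lower, 353 short-read and 153 long-read, 17 had no read in either assay and 61 had under 3 reads in inAGTuC. These calls are therefore not read as measured differences. No member was called higher, by either limma fit or at an unadjusted p under 0.05. The split of directions over all bins turned with the setting, with 5247 higher and 4056 lower here, but none higher and 10665 lower with a filter of 20 reads. Without the inAGTuC library of Exp261 226 members and 1001 bins in all were lower. With 1 AGTuC library left, whose spread was taken from the other groups, no bin was called without c02, and 422 members among 3928 bins, all lower, without c01.

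With limma-trend and an offset in proportion to library size, the median log2 difference was −1.0 over members and 1.85 over all bins tested. By this fit 53.9% of bins were called, 53.7% higher and 0.252% lower in AGTuC, and 15 members were among the lower bins, all long-read and all also called by voom. Of these 8 were bins of Rmrp. The member with the smallest adjusted p there was chr8:15519901-15519950 (minus strand, outside genes), with 718 reads in inAGTuC and 4 in AGTuC (log2 −5.92, SE 1.11, limma-trend adjusted p = 2.44e-04). Counting only reads of 25 bases or more, voom called 70.5% of 6245 bins, 64.4% higher and 6.16% lower. Members were chosen anew here, as the 448 bins that met the rule with such reads. Of the 329 of these that were tested, 169 were lower and none was higher, none either at an unadjusted p under 0.05. With all reads, both AGTuC libraries lay below all 4 inAGTuC libraries in 191 of the 1371 members, of which 190 were long-read. Among the 707 tested they did so in 162, or 22.9%, against 3.00% of all bins tested. Both AGTuC libraries lay above all 4 in 1, or 0.141%, against 54.5% of all bins tested. Bins entered the test by reads summed over the libraries of the fit, AGTuC included, whereas members were chosen by scGRO–seq reads. Contrasts of members with all bins, in calls, shares and medians, can follow from this choice and are not read as a result.

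Named by the smallest adjusted p, the lower members were, beside 2 antisense bins of Rmrp, the following. The bin chr8:15519851-15519900 (minus strand, outside genes) stood at 116, 55.4, 191 and 122 RPM in inAGTuC and had no read in AGTuC (limma voom adjusted p = 2.68e-16). The bin chr16:35981601-35981650 (minus strand, outside genes) stood at 246, 258, 22.3 and 51.5 RPM in inAGTuC and at 0 and 0.636 in AGTuC (limma voom adjusted p = 1.22e-08). The bin chr2:98667101-98667150 (minus strand, outside genes) stood at 22.9, 15.5, 6.26 and 103 RPM in inAGTuC, with no read in AGTuC (limma voom adjusted p = 1.32e-07), but did not pass limma-trend (adjusted p = 0.267), which the other 2 did (adjusted p = 0.0131 and 0.0358). The bin on chr16 shared sequence with a member of another locus. Those on chr8 and chr2 also shared sequence with another member, and of the 5 members of the chr8 locus 3 did so with another locus. Median mapping quality was 9 for the bin on chr8, 17 on chr16 and 11 on chr2, and the last lay on masked sequence.

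In the other scGRO–seq batches against inAGTuC, voom called 87.9% of bins, 87.7% higher and 0.213% lower. Of the members 397 were called higher, 352 short-read and 45 long-read, of which 18 had no read and 63 under 3 reads in inAGTuC, and these calls too are not read as measured differences. As lower 15 were called among 22 bins in all, and all 15 were long-read. The count was 2 of 3 bins with each barcode counted once, 9 of 14 at a mapping quality of 20 or more, 0 of 1 with a filter of 20 reads and 26 of 30 with the experiment as a block. Counting only reads of 25 bases or more, 93 of 329 members tested were higher and none lower (none at an unadjusted p under 0.05). There 90.6% of bins were called, 90.6% higher. With longer reads, at that mapping quality and with each barcode counted once, members were chosen anew from the reads so counted. Limma-trend called no member, with 1 higher and 14 lower at an unadjusted p under 0.05, and 0.126% of all bins. The members that voom ranked first as higher had reads in few batches. The bin chr16:8637451-8637500 (minus strand, exon of Tmem186) was read in 4 of 11 other batches, with a median of 0 and a highest level of 425 RPM, and had no read in inAGTuC (limma-trend adjusted p = 0.715). Of the 5 lower members with the smallest adjusted p, 3 were bins of Rmrp. Without Exp153 30 members were lower among 41 bins in all, without Exp168 23 among 29, and without the scGRO–seq batch Exp261 23 among 34. The bin chr11:109011851-109011900 (plus strand, outside genes) had a median of 2.05 RPM over the other batches and a highest level of 491 RPM. It stood at 348, 261, 57.01 and 121 RPM in inAGTuC (log2 −3.63, SE 1.03, limma voom adjusted p = 6.20e-04). The highest of the other batches thus lay above every inAGTuC library, and the bin did not pass limma-trend (adjusted p = 0.534).

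The threshold of 200 reads cut through a continuous range. Of the 50 members nearest above it (200 to 206 reads) 38 were short-read and 16 ended on ACAGG, and of the 50 bins nearest below (193 reads or more) 36 and 21. Exactly 200 reads were held by 5 members, and 1 fewer by 8 bins outside the set. Among the 4653 bins with at least 50 but under 200 reads 3762 were short-read, so that the 2 kinds continue below the threshold.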

How the data were processed

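The deposited read lists give each read's interval and, as score, the mapping quality, which the authors wrote after trimming (Cutadapt), splitting by barcode (Flexbar), removal of ribosomal reads, mapping to mm10 (bowtie2, very sensitive) and removal of duplicates (UMI-tools). Reads were kept from 14 bases, and scores ran from 3 to 44. Entries, antisense to the RNA, were counted by 3′ end, without normalization by the authors. One scGRO–seq list of Exp261, 99.7% of whose reads are in an inAGTuC list, was left out. Members, lists and tests were chosen with earlier results of these data known. Batches were replicates for scGRO–seq; Exp149 and Exp183, under 50000 reads, were left out of the fits. Bins were tested with limma 3.58.1 (voom, Benjamini-Hochberg, threshold 0.05) in R 4.3.3, with limma-trend as an alternative. The voom fit was also run on simulated counts with a set spread and changes only in well-read bins. That run cannot vouch for calls in bins with few reads. The classes by read length were set after the values were seen. RPM divides by counted reads. Matches used BLAST 2.17.0; figures matplotlib 3.10.9. Named bins follow a fixed rule: most reads, extremes between assays and batches, smallest p, nearest the threshold and listed genes.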

Additional observations from a re-analysis of the deposited data

Results flagged for a closer look

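Over the 4 inAGTuC libraries, whose reads were not used to choose the members, 3 values stood apart from the rest by Dixon's criterion, which chance meets in about 1 of 20 groups, out of 14 groups of values examined. All 3 were of the library of Exp261. It had 0.800% of its reads in short-read members ending on ACAGG, above the next library at 0.0204%. Among the 10 most-read bins it stood at 210 RPM at chr15:68500001-68500050, above the next at 11.1 RPM, and at 396 RPM at chr14:99415601-99415650, above the next at 0.695 RPM. The causes were not tested.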

How the results depend on the processing

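The number of members, 1371 at 200 reads, was 2829 at 100 reads, 679 at 400 and 448 with reads of 25 bases or more, and 820 to 1363 without 1 of the main batches, lowest without Exp260b. The median share of reads in members was 10.92%. It was 3.277% for the 989 bins that met the rule with each cell barcode counted once per library and bin. The share outside genes, 50.62%, was 40.77% with all RefSeq transcripts and 53.76% at 400 reads. Wherever reads were counted otherwise, members were chosen anew by the rule, so that the counts of members below are not of a fixed set.

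For AGTuC against inAGTuC, 9303 bins were called. The count was 4405 with reads of 25 bases or more, 5569 by limma-trend, 2618 with a filter of 100 reads (884 higher, 1734 lower), 10665, all lower, with a filter of 20 reads and 0 to 8952 without 1 library, with 0 without AGTuC c02 and 3928 without c01. Members lower in AGTuC numbered 506, 169 with longer reads, 15 by limma-trend and 0 to 511 without 1 library, 226 of them without the inAGTuC library of Exp261. Counting each barcode once was not run here, since each AGTuC library has 1 barcode.

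For the other scGRO–seq batches against inAGTuC, 9079 bins were called, 5655 with longer reads, 3297 with each barcode counted once, 13 by limma-trend, 36439 and 2493 with filters of 20 and 100 reads and 7012 to 9079 without 1 sample. Members higher numbered 397, 93 with longer reads, 0 by limma-trend and 341 to 406 without 1 sample. Members lower numbered 15, 9 at a mapping quality of 20 or more, 2 with each barcode counted once, 0 with longer reads, by limma-trend or with a filter of 20 reads, and 10 to 30 without 1 sample, 30 without Exp153 and 23 without Exp168 or Exp261.

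With the experiment number as a random block, 7891 and 9073 bins were called, and the members' counts were 436 lower in AGTuC, and 390 higher and 26 lower in the other batches. The causes of these changes were not tested. The number of bins and members called therefore depends on the fit, and with 2 AGTuC libraries of 1 experiment, assay and experiment cannot be told apart.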
